A study of Homo sapiens with 12 samples.

Results

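The genes described here encode the ADAM and ADAMTS metalloproteinases and the ADAMTS-like proteins of human cells. They were chosen by symbol alone, as ADAM, ADAMTS or ADAMTSL followed by a number, and 35 of the 23375 genes in the authors' 4 comparison tables fit. A further 11 symbols of this form have no row in those tables and were not analysed here: ADAM2, ADAM5, ADAM6, ADAM7, ADAM18, ADAM23, ADAM30, ADAM33, ADAMTS8, ADAMTS17 and ADAMTS19. RNA was measured by polyadenylated RNA sequencing in SUM159, an established triple-negative breast cancer cell line whose source the labels give as a primary tumour. The 12 libraries form 4 groups of 3: cells with a hairpin against E4F1 (shE4F1) given gemcitabine, shE4F1 cells left untreated, cells with a scrambled control hairpin (shCTRL) given gemcitabine, and shCTRL cells left untreated. E4F1 is a zinc finger protein that acts as a transcription factor and ubiquitin ligase, and gemcitabine is a deoxycytidine analogue that stalls DNA synthesis, given at 140 nM for 24 h. The labels name 1 hairpin against E4F1. They do not state that replicates were grown as separate cultures, so the p-values describe the spread among these 12 libraries, part or all of which may be technical.

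ADAM proteins are membrane-anchored proteins with a metalloproteinase and a disintegrin domain. Those with an intact active site cut the extracellular part of other membrane proteins close to the membrane, which releases growth factors, cytokines and receptor fragments, and several members have lost that activity and serve in adhesion. ADAMTS proteins are secreted, bind the extracellular matrix through thrombospondin repeats, and cut proteoglycans such as aggrecan and versican, trim the ends of procollagens, or process other matrix and plasma proteins. ADAMTS-like proteins share the repeats and lack the catalytic domain. In breast tissue and breast tumours these enzymes are known for the release of epidermal growth factor receptor ligands and for remodelling of the matrix.

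Values are taken from the 4 tables the authors made with DESeq2. A table holds, for each gene, the mean normalized count of the 6 libraries it compares, the log2 fold change, the standard error (SE, written after ±) and a p-value adjusted by Benjamini-Hochberg over the genes of that table. A gene is said to have risen or fallen where this adjusted p was under 0.05. Levels of each group are those implied by the mean normalized count and the log2 fold change of a table, so they carry no error of their own and follow that table's scaling. No value per library was used, so depth is unknown here and it cannot be said whether the libraries of different groups overlap. E4F1 itself fell by 0.99 ± 0.26 (adjusted p = 0.000778) on the log2 scale with shE4F1 in untreated cells and by 0.91 ± 0.16 (adjusted p = 1.47e-07) under gemcitabine, in the authors' deposited tables. The mesenchymal markers VIM, CD44, FN1, CDH2, ZEB1 and AXL had means of 4166 to 175896 in the authors' deposited table of the untreated knockdown, against 5.34 for the epithelial cadherin CDH1 and 9.21 for the oestrogen receptor ESR1. CDH1 was the lowest of the luminal epithelial markers with a row. KRT8 had a mean of 2674, KRT18 2330, GATA3 401.9 and FOXA1 45.5 in the same authors' deposited table. ERBB2 was detected at a mean of 2833 in the authors' deposited table. Of the blood and endothelial markers, 2 and 3 had a row in the authors' deposited table of the untreated knockdown, where PTPRC fell by 2.21 while KDR rose by 2.34 and PECAM1 by 1.40; CD3E, HBB, CDH5 and VWF have no row there. The summed implied level of the blood markers was 20.0 in shE4F1 cells and 75.1 in shCTRL cells, and that of the endothelial markers 3279 and 699.8, from the authors' deposited table. Under gemcitabine these sums were 34.5 in shE4F1 and 212.7 in shCTRL cells for 2 blood markers and 2374 and 416 for 4 endothelial markers, from the authors' deposited table. The sums rest mainly on PTPRC and KDR: CD14 and TEK had changes of -0.08 and -0.13 without treatment, and CD14, TEK and VWF of -0.67, -0.22 and -0.75 under gemcitabine, none of which passed the test in the authors' deposited tables. PTPRC, KDR and PECAM1 thus moved with the knockdown, and their part in the results below was not tested. As RNA was taken from bulk cells, fewer cells of a kind and less RNA per cell cannot be told apart.

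Per kilobase of exon, the level of these genes spanned over 3 orders of magnitude in untreated cells. ADAM9, a widely expressed sheddase, led with a mean normalized count per kilobase of 2325 in the authors' deposited table of the untreated knockdown, scaled by exon length. On the same scale and from the authors' deposited table, ADAM10 had 377, ADAM15 327, ADAM12 268 and ADAM17 205. The 5 highest genes were thus all ADAM proteases. Among the secreted enzymes ADAMTS12 stood highest at 183, ahead of ADAMTS2 at 144, ADAMTS6 at 143, ADAMTS9 at 133 and ADAMTS1 at 124, again per kilobase from the authors' deposited table. The lowest of the 31 genes with a row was ADAMTSL2, at 0.776 per kilobase in the authors' deposited table.

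**Figure D1:**
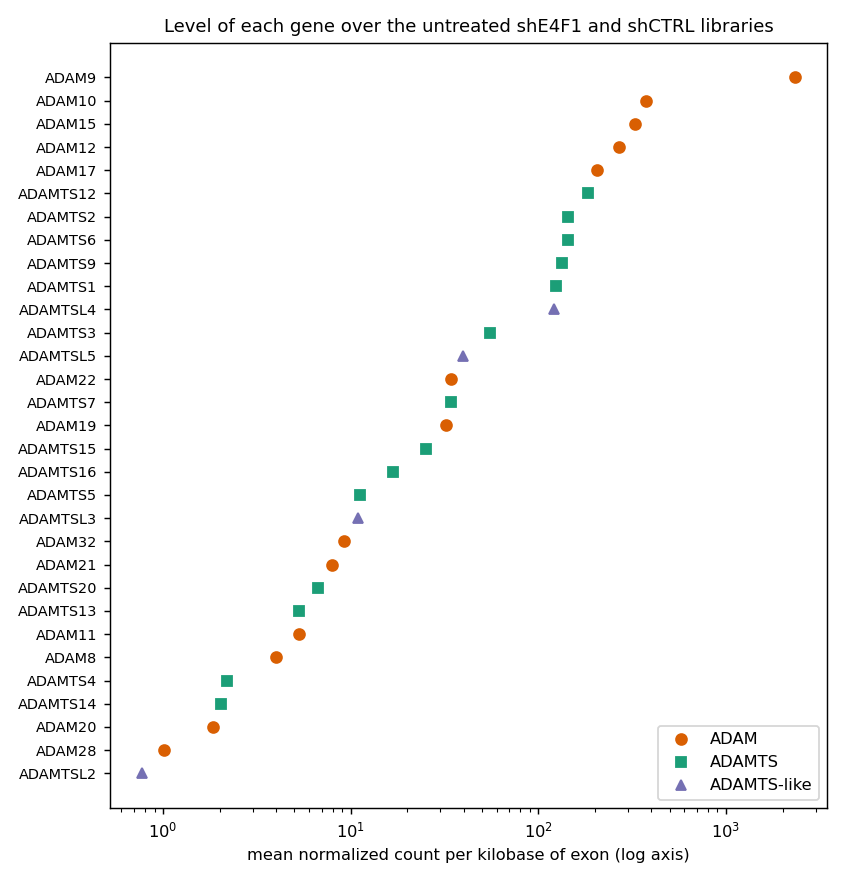
Mean normalized count per kilobase of exon (log axis) of the 31 genes with a row in the authors' deposited table of the untreated knockdown, over 3 shE4F1 and 3 shCTRL libraries. Symbols separate ADAM, ADAMTS and ADAMTS-like genes, no error is available, and ADAM9 stands highest at 2325.

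The sequence before the annotated start is shown for 4 genes. ADAM12 and ADAM19 are the ADAM genes with the largest fall and the largest rise on knockdown in untreated cells, and ADAMTS3 and ADAMTS6 are those with a match to TGACGT, the core that E4F1 sites share with ATF and CREB sites. Each run covers the 250 bases before the start of the RefSeq promoter table of GRCh38.p14, read 5′ to 3′ on the strand of the gene, which is the minus strand in all 4. The windows are chr10:126388478-126388727 for ADAM12, chr5:157575776-157576025 for ADAM19, chr4:72569222-72569471 for ADAMTS3 and chr5:65481921-65482170 for ADAMTS6. Capitals mark TGACGT and the GC box GGGCGG on either strand, so that CCGCCC is a GC box on the other strand.
ADAM12: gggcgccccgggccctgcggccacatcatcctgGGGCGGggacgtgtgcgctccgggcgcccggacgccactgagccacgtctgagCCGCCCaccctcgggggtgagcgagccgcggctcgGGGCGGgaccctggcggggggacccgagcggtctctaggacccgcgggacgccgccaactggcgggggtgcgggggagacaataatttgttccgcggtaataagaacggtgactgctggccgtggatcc
ADAM19: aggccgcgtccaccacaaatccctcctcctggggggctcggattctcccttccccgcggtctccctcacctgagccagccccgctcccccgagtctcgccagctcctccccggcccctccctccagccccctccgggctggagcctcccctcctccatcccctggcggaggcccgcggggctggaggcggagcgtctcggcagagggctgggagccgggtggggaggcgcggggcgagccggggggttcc
ADAMTS3: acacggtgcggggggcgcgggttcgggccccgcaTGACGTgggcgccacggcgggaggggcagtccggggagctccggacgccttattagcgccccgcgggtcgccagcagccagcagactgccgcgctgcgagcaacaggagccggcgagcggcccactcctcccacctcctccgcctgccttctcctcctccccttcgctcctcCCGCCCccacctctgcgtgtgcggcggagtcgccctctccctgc
ADAMTS6: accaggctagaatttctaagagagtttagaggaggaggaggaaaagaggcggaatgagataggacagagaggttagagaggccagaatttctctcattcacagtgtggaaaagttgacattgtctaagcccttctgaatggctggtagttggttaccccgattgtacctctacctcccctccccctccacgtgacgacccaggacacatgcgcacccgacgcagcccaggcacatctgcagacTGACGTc
TGACGT lay at -216 from the start in ADAMTS3 and at -7 in ADAMTS6, and in 2 of the 25 genes matched by symbol in that table, against 7.09% of 34788 promoter windows of the same length. The GC box occurred in 19 of the 25, against 42.6% of all windows, with 3 matches in ADAM12 and none in ADAM19. The AP-1 letters TGANTCA were found in 1 of the 25, ADAMTS12, against 6.59% of windows, and the TATA box TATAAA in 2, ADAMTS10 and ADAMTSL2, against 10.8%. Motifs were searched on both strands, the 4 sets of letters do not overlap in the windows printed, and a match is a description of the letters.

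E4F1 knockdown was compared with the control hairpin in untreated cells and, in other libraries, under gemcitabine. In untreated cells 11 of the 30 genes with an adjusted p rose and 3 fell, in the authors' deposited table, where 17.5% of all 19472 genes tested rose and 19.3% fell. Their median log2 change was 0.55, against -0.01 over all genes. Under gemcitabine 12 of 35 rose and 8 fell in the authors' deposited table, with 20.3% up and 20.8% down among all 22433 genes and medians of 0.22 and 0.00. As shares, 36.7% rose and 10.0% fell in untreated cells, and 34.3% rose and 22.9% fell under gemcitabine, where the share that fell lay near that of all genes; no test of these shares against all genes was made. At an adjusted p under 0.01 the untreated counts were 7 and 1. Between these comparisons, which share no library, 30 genes were tested in both: 9 rose in both, which is 9 of the 11 that rose untreated and of the 12 that rose under gemcitabine, and 2 fell in both, of 3 untreated and 7 under gemcitabine. Over all 19389 genes tested in both, 77.5% of those that rose untreated and 58.4% of those that rose under gemcitabine rose in both. For genes that fell the shares were 72.0% and 61.6%. The overlap here lies near these shares for the genes called untreated. For those called under gemcitabine, 9 of 12 lies above 58.4% and 2 of 7 below 61.6%, on few genes and without a test. ADAMTS1 rose in untreated cells and fell under gemcitabine.

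**Figure D2:**
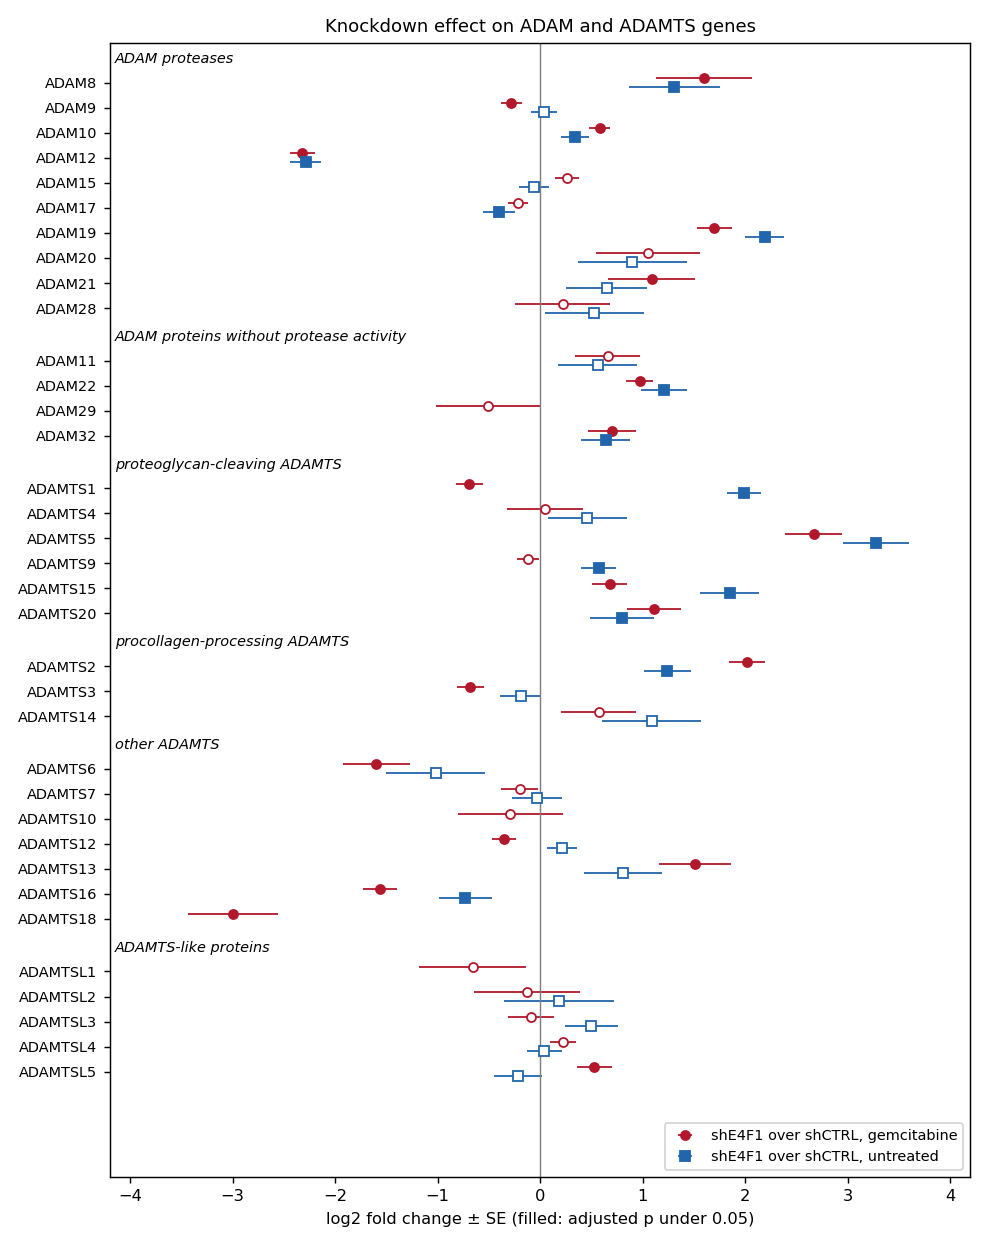
Log2 fold change ± SE of shE4F1 over shCTRL for each gene, by role, under gemcitabine (red circles) and in untreated cells (blue squares), with 3 libraries per group. Filled symbols have an adjusted p under 0.05, and the values come from the authors' deposited tables. ADAM12 lies at -2.32 and -2.29, while ADAMTS1 lies on opposite sides of 0.

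Of the 10 ADAM proteases, 3 rose and 2 fell with the knockdown in untreated cells, and 4 rose and 2 fell under gemcitabine. Among all genes 17.5% rose and 19.3% fell untreated, and 20.3% rose and 20.8% fell under gemcitabine. The share of these proteases that fell, 20% in each, lay near that of all genes. ADAM12 (ENSG00000148848, GRCh38 chromosome 10, 126012381 to 126388455, minus strand), a sheddase of heparin-binding EGF that also cuts insulin-like growth factor binding proteins, fell in both. Its implied mean normalized counts were 897 in shE4F1 cells and 4393 in shCTRL cells without treatment, and 768 and 3836 under gemcitabine, from the authors' deposited tables. The fall was 2.29 ± 0.15 (adjusted p = 1.01e-47) on the log2 scale in untreated cells and 2.32 ± 0.12 (adjusted p = 5.96e-82) under gemcitabine, in the authors' deposited tables. The knockdown effect on ADAM12 therefore had nearly the same size with and without the drug, and the difference between the effects was -0.03, with a 95% interval of -0.41 to 0.35.

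ADAM19 (ENSG00000135074, chromosome 5, 157395534 to 157575775, minus strand), which sheds neuregulins, rose in both conditions. Its implied mean normalized counts were 405 in shE4F1 and 88.8 in shCTRL cells without treatment, and 492 and 152 under gemcitabine, from the authors' deposited tables. These are changes of 2.19 ± 0.19 (adjusted p = 1.76e-28) and 1.70 ± 0.17 (adjusted p = 1.47e-21) in the authors' deposited tables. ADAM8, a sheddase best known from leukocytes, rose by 1.31 ± 0.45 (adjusted p = 0.0117) untreated and 1.60 ± 0.47 (adjusted p = 0.00221) under gemcitabine in the authors' deposited tables, at a mean of only 19.0 in untreated cells. ADAM21, a testis-expressed protease with close copies in the genome, rose under gemcitabine by 1.09 ± 0.42 (adjusted p = 0.0269) in the authors' deposited table and had 0.65 ± 0.40 (adjusted p = 0.199) in untreated cells, and its reads cannot be assigned with certainty.

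ADAM10, ADAM17, ADAM9 and ADAM15 changed less. ADAM10 (chromosome 15, 58588807 to 58749978, minus strand), which makes the first cut of ligand-bound Notch receptors, had implied means of 6801 in shE4F1 and 5380.1 in shCTRL cells untreated, and 5733 and 3825 under gemcitabine, from the authors' deposited tables. It rose by 0.34 ± 0.14 (adjusted p = 0.0399) and 0.58 ± 0.10 (adjusted p = 7.25e-08) in the authors' deposited tables. ADAM17 (chromosome 2, 9488486 to 9556732, minus strand), the TNF-converting enzyme, which also releases amphiregulin and TGF-alpha, fell by 0.40 ± 0.16 (adjusted p = 0.0324) in untreated cells in the authors' deposited table, a call that is lost at an adjusted p of 0.0667 once log2 changes are centred on the median gene. Under gemcitabine its change was -0.22 ± 0.098 (adjusted p = 0.0594) in the authors' deposited table. IAH1, which overlaps ADAM17 on the other strand, had changes of -0.58 and -0.33 in the authors' deposited tables; the library kit keeps strand, but the strand setting of the counting is not given in the sources used here, so a share of reads common to both genes was not tested. ADAM9 fell under gemcitabine by 0.28 ± 0.10 (adjusted p = 0.0137) in the authors' deposited table and had 0.04 ± 0.13 (adjusted p = 0.863) in untreated cells. ADAM15 had -0.06 ± 0.15 (adjusted p = 0.810) untreated and 0.26 ± 0.11 (adjusted p = 0.0581) under gemcitabine in the authors' deposited tables.

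Among the ADAM proteins without protease activity, 2 of 3 rose in untreated cells and 2 of 4 under gemcitabine. Of all genes 17.5% and 20.3% rose in these comparisons. ADAM22, the receptor of the secreted protein LGI1 at synapses, had implied means of 583 in shE4F1 and 251 in shCTRL cells untreated and 637 and 326 under gemcitabine, from the authors' deposited tables. It rose by 1.21 ± 0.22 (adjusted p = 6.96e-07) and 0.97 ± 0.13 (adjusted p = 3.73e-12) in the authors' deposited tables. ADAM32, otherwise known from testis, rose by 0.64 ± 0.24 (adjusted p = 0.0250) and 0.70 ± 0.23 (adjusted p = 0.00828) in the authors' deposited tables.

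The proteoglycan-cleaving ADAMTS genes held the largest rise, that of ADAMTS5. With the knockdown in untreated cells 5 of 6 rose and none fell, with a median of 1.32. There 17.5% of all genes rose and 19.3% fell. Under gemcitabine 3 rose and 1 fell, with a median of 0.37, where 20.3% of all genes rose and 20.8% fell. No test of these counts against all genes was made. ADAMTS5 (ENSG00000154736, chromosome 21, 26917912 to 26966513, minus strand), the main aggrecanase of mouse cartilage, had implied means of 183 in shE4F1 and 18.8 in shCTRL cells untreated and 143 and 22.5 under gemcitabine, from the authors' deposited tables. The rise was 3.28 ± 0.32 (adjusted p = 2.78e-22) in untreated cells and 2.67 ± 0.28 (adjusted p = 5.63e-20) under gemcitabine in the authors' deposited tables, and was the largest among these genes in both.

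ADAMTS1 (ENSG00000154734, chromosome 21, 26835747 to 26845409, minus strand), which cuts versican and aggrecan, lies 72502 bases from ADAMTS5 on the same strand and went in opposite directions in the 2 conditions. In untreated cells its implied means were 1402 with shE4F1 and 353 with shCTRL, and under gemcitabine 1017 with shE4F1 and 1644 with shCTRL, from the authors' deposited tables. It rose by 1.99 ± 0.17 (adjusted p = 4.35e-30) in untreated cells and fell by 0.69 ± 0.13 (adjusted p = 1.64e-06) under gemcitabine in the authors' deposited tables. The shE4F1 level was thus the higher one without the drug and the shCTRL level the higher one with it; the tables were scaled separately, so levels are set against each other only within a treatment.

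ADAMTS15, a versican-cutting enzyme, rose by 1.85 ± 0.29 (adjusted p = 2.51e-09) in untreated cells and by 0.68 ± 0.17 (adjusted p = 0.000261) under gemcitabine in the authors' deposited tables. ADAMTS9, which also cuts versican, rose by 0.57 ± 0.17 (adjusted p = 0.00273) in untreated cells in the authors' deposited table and had -0.12 ± 0.11 (adjusted p = 0.408) under gemcitabine. ADAMTS20, known in mice for coat pigment patterning, rose by 0.80 ± 0.31 (adjusted p = 0.0302) and 1.11 ± 0.26 (adjusted p = 0.000105) in the authors' deposited tables. The aggrecanase ADAMTS4 did not pass the test in any comparison; its changes were 0.46 ± 0.39 and 0.05 ± 0.37 in the authors' deposited tables.

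Of the 3 procollagen-processing genes, ADAMTS2 (chromosome 5, 179110851 to 179345430, minus strand), the main amino-terminal proteinase of fibrillar procollagens, rose in both conditions. Its implied means were 1766 in shE4F1 and 747 in shCTRL cells untreated, and 1375 and 339.8 under gemcitabine, from the authors' deposited tables. The rise was 1.24 ± 0.23 (adjusted p = 6.68e-07) untreated and 2.02 ± 0.18 (adjusted p = 6.25e-28) under gemcitabine in the authors' deposited tables. ADAMTS3, which activates the lymphangiogenic factor VEGFC, fell under gemcitabine by 0.68 ± 0.13 (adjusted p = 2.64e-06) in the authors' deposited table and had -0.19 ± 0.20 (adjusted p = 0.495) in untreated cells. ADAMTS14 had 1.09 ± 0.48 (adjusted p = 0.0650) and 0.57 ± 0.37 (adjusted p = 0.229) in the authors' deposited tables.

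Of the other ADAMTS genes 1 of 5 fell and none rose in untreated cells, where 19.3% of all genes fell. Under gemcitabine 4 of 7 fell, ADAMTS18 among them, and 1 rose, where 20.8% of all genes fell and 20.3% rose. ADAMTS16 and ADAMTS18 are close paralogs. ADAMTS16 (chromosome 5, 5140330 to 5320304, plus strand) had implied means of 73.6 in shE4F1 and 122 in shCTRL cells untreated and of 159 and 469 under gemcitabine, from the authors' deposited tables. It fell by 0.73 ± 0.26 (adjusted p = 0.0148) and 1.56 ± 0.17 (adjusted p = 2.73e-19) in the authors' deposited tables. ADAMTS18 (chromosome 16, 77247813 to 77435114, minus strand) has a row in 2 tables, both of which include the shCTRL gemcitabine libraries, in which it was higher than in the libraries set against them, so its presence there is tied to that level. Under gemcitabine its implied means were 5.04 in shE4F1 and 40.4 in shCTRL cells, a fall of 3.00 ± 0.44 (adjusted p = 7.08e-11) in the authors' deposited table. That was the largest fall among these genes, and the ranking carries the same limit.

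ADAMTS6, which acts on fibrillin microfibrils, fell under gemcitabine by 1.60 ± 0.33 (adjusted p = 6.40e-06) in the authors' deposited table, and had -1.02 ± 0.48 (adjusted p = 0.0871) in untreated cells. Its SE in untreated cells was larger than that of 99.9% of genes of like mean, whose median SE was 0.155, in the authors' deposited table of the untreated knockdown. ADAMTS12, which cuts cartilage oligomeric matrix protein, fell under gemcitabine by 0.35 ± 0.12 (adjusted p = 0.00952) in the authors' deposited table and had 0.21 ± 0.15 (adjusted p = 0.283) in untreated cells. ADAMTS13, the plasma protease of von Willebrand factor, rose under gemcitabine by 1.51 ± 0.35 (adjusted p = 8.56e-05) in the authors' deposited table, at a mean of 38.3, and had 0.81 ± 0.38 (adjusted p = 0.0807) in untreated cells. REXO4, which overlaps ADAMTS13 on the other strand, had -0.54 untreated and -0.47 under gemcitabine in the authors' deposited tables, and shared reads were not tested there either. Of the ADAMTS-like genes, ADAMTSL5 alone changed, with a rise of 0.53 ± 0.17 (adjusted p = 0.00710) under gemcitabine in the authors' deposited table.

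No call was made in any comparison for 12 of the 35 genes: ADAM11, ADAM15, ADAM20, ADAM28, ADAM29, ADAMTS4, ADAMTS7, ADAMTS10, ADAMTSL1, ADAMTSL2, ADAMTSL3 and ADAMTSL4. Under gemcitabine their knockdown changes ran from -0.66 to 1.05 in the authors' deposited table, at means of 2.70 to 2241. ADAM20, at a mean of 3.05, had 1.05 ± 0.51 in the authors' deposited table, where genes of like mean had a median SE of 0.515. ADAM20 and ADAMTS7 have pseudogene copies with which reads may be shared.

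Gemcitabine was compared with no treatment in shCTRL cells in a deposited table, and in shE4F1 cells through the difference between 2 tables. In shCTRL cells 6 of 30 genes rose and 3 fell in the authors' deposited table, where 14.5% of 20002 genes rose and 13.5% fell. The median log2 change was 0.09, against -0.02 over all genes. ADAMTS18 had implied means of 39.8 with gemcitabine and 4.64 untreated, from the authors' deposited table, and rose by 3.10 ± 0.41 (adjusted p = 2.80e-12). It counts among the 6 that rose, and its row is tied to its level in the treated shCTRL libraries. The implied means of ADAMTS1 were 1649 with gemcitabine and 413 untreated in the authors' deposited table, a rise of 2.00 ± 0.17 (adjusted p = 3.13e-29). For ADAMTS16 they were 470.3 and 151 in the authors' deposited table, a rise of 1.64 ± 0.21 (adjusted p = 2.05e-13). Smaller rises in the authors' deposited table were those of ADAMTS14 (1.26 ± 0.41, adjusted p = 0.00962), ADAMTS15 (0.94 ± 0.29, adjusted p = 0.00603) and ADAM19 (0.57 ± 0.23, adjusted p = 0.0448).

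ADAMTS2 fell in shCTRL cells by 1.22 ± 0.25 (adjusted p = 1.83e-05), with implied means of 351 under gemcitabine and 815 untreated, in the authors' deposited table. The sheddase ADAM10 fell by 0.67 ± 0.14 (adjusted p = 2.29e-05) and ADAM9 by 0.33 ± 0.13 (adjusted p = 0.0461) in the authors' deposited table; the call for ADAM9 is lost at an adjusted p of 0.122 when changes are centred on the median gene and at 0.0507 without independent filtering. ADAM12 had -0.38 ± 0.16 (adjusted p = 0.0527), ADAM17 0.06 ± 0.16 (adjusted p = 0.823) and ADAMTS5 0.15 ± 0.38 (adjusted p = 0.813) in the authors' deposited table. The shCTRL gemcitabine libraries also enter the knockdown comparison under gemcitabine, where ADAMTS1, ADAMTS16, ADAMTS18 and ADAMTS2 have the opposite sign, so the values are given side by side only.

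**Figure D3:**
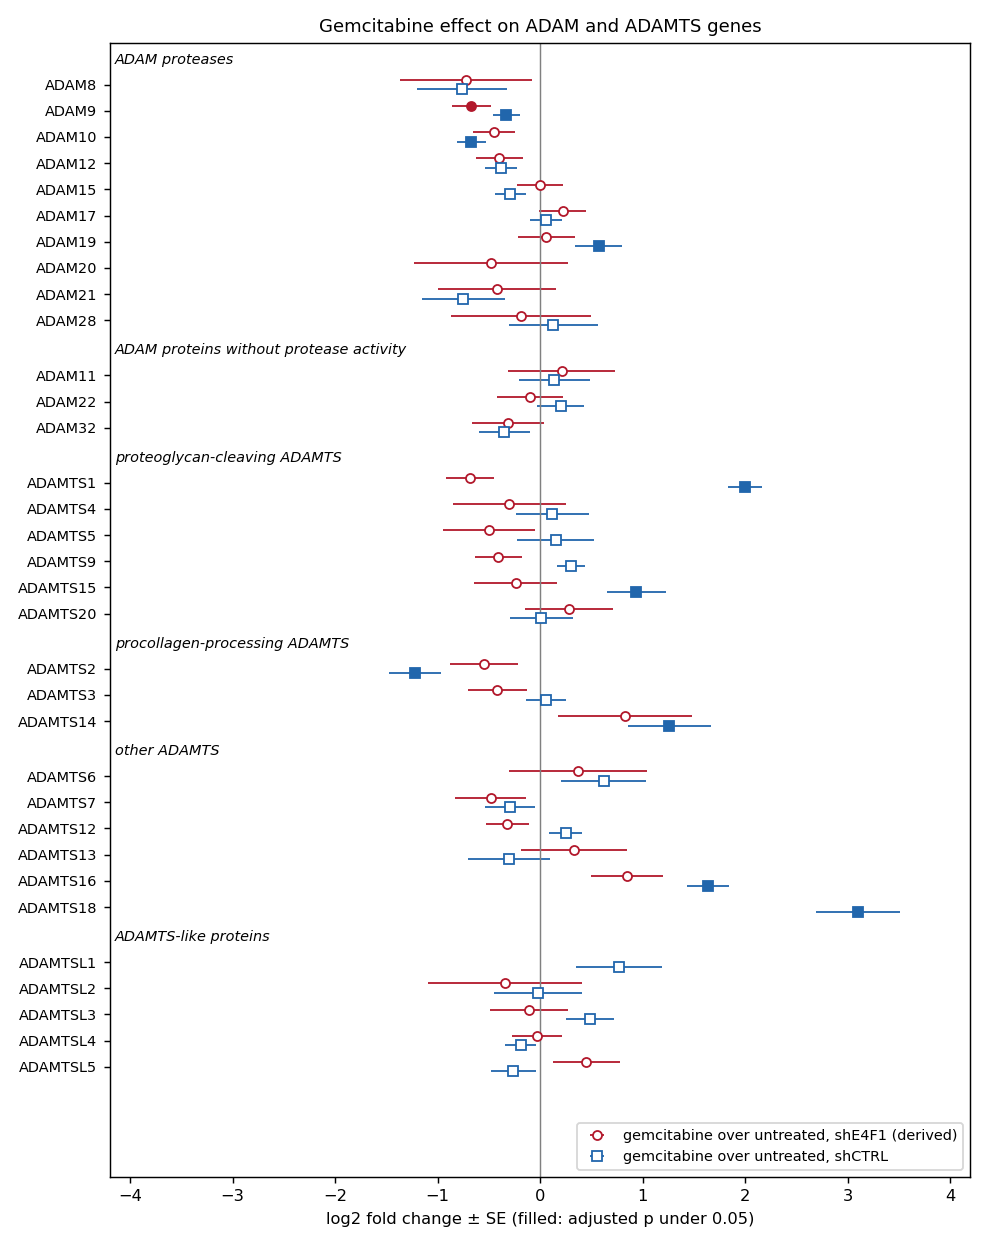
Log2 fold change ± SE of gemcitabine over untreated for each gene, by role, in shE4F1 cells (red circles, difference of 2 tables) and in shCTRL cells (blue squares, the authors' deposited table), with 3 libraries per group. Filled symbols have an adjusted p under 0.05. ADAMTS18, ADAMTS1 and ADAMTS16 stand at 3.10, 2.00 and 1.64 in shCTRL cells, and in shE4F1 cells ADAM9 alone is filled. The row of ADAMTS18 is tied to its level in the treated shCTRL libraries.

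In shE4F1 cells the gemcitabine effect is the change from untreated shCTRL to treated shE4F1 cells less the change on knockdown in untreated cells. The untreated shCTRL libraries enter both tables, so the SE is too large; by this test 0.925% of 21080 genes rose and 0.185% fell. Of 31 genes, none rose and 1 fell, ADAM9, by 0.67 ± 0.19 (adjusted p = 0.0451); at an adjusted p of 0.0622 it is lost on centring. By the same normal test 1 gene was higher and 3 were lower at an unadjusted p under 0.05. These counts have no share of all genes beside them, so they are not read as a result. ADAMTS1 had -0.68 ± 0.23 (adjusted p = 0.188) and ADAMTS16 0.85 ± 0.35 (adjusted p = 0.470) in shE4F1 cells by that difference.

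Treated shE4F1 cells were also set against untreated shCTRL cells, which combines both changes. Here 9 of 29 genes rose and 3 fell in the authors' deposited table, where 15.8% of 19724 genes rose and 16.3% fell. ADAMTS5 rose by 2.78 ± 0.32 (adjusted p = 1.22e-16) and ADAM19 by 2.24 ± 0.20 (adjusted p = 1.47e-26), and ADAM12 fell by 2.69 ± 0.17 (adjusted p = 2.33e-53), in the authors' deposited table. The further rises in the authors' deposited table were ADAMTS14 at 1.91, ADAMTS15 at 1.61, ADAMTS1 at 1.32, ADAM22 at 1.12, ADAMTS20 at 1.08 and ADAMTS2 at 0.69. ADAMTS13 rose as well, with implied means of 52.8 in treated shE4F1 and 24.0 in untreated shCTRL cells, from the authors' deposited table (adjusted p = 0.00673). ADAM9 fell by 0.63 and ADAMTS3 by 0.62 in the authors' deposited table. ADAM10 and ADAMTS16, called in opposite directions by the knockdown and by the drug, stood at -0.11 ± 0.15 (adjusted p = 0.639) and 0.11 ± 0.24 (adjusted p = 0.780) in the authors' deposited table.

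**Figure D4:**
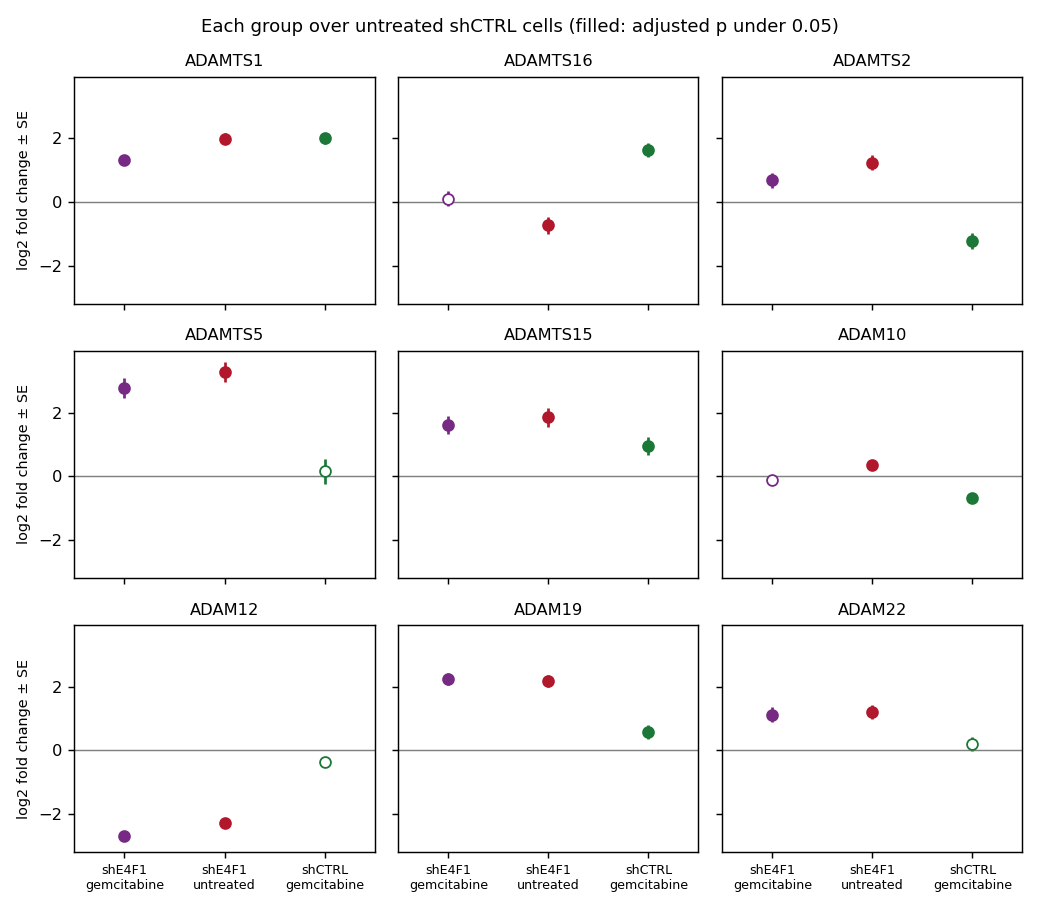
Log2 fold change ± SE of shE4F1 gemcitabine, shE4F1 untreated and shCTRL gemcitabine cells over untreated shCTRL cells (the line at 0) for 9 genes, from 3 of the authors' deposited tables that share the untreated shCTRL libraries. Filled symbols have an adjusted p under 0.05. ADAMTS1 is above 0 in all 3 groups, at 1.32, 1.99 and 2.00, and ADAM12 is low in both shE4F1 groups.

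Whether the knockdown effect differed with treatment was tested as the effect under gemcitabine minus the effect in untreated cells, which share no library. Of all 20923 genes 2.81% had a higher and 2.63% a lower effect under gemcitabine, and of 31 genes here none was higher and 3 were lower. At an unadjusted p under 0.05 of this normal test 2 were higher and 7 lower. The share of all genes at that unadjusted threshold is not given here, so these counts cannot be set against it. Those lower at an adjusted p under 0.05 are 3 of the 6 proteoglycan-cleaving genes, and the other 3 were not called. ADAMTS1 differed by -2.69 ± 0.22 (adjusted p = 1.24e-31), ADAMTS15 by -1.16 ± 0.33 (adjusted p = 0.0150) and ADAMTS9 by -0.70 ± 0.20 (adjusted p = 0.0150). ADAMTS5, of the same role, had -0.61 with a 95% interval of -1.45 to 0.23, and ADAM19 had -0.49 with -0.99 to 0.01. ADAMTS12 stood just outside the threshold, with -0.55 ± 0.19 (adjusted p = 0.0543). ADAMTS16 and ADAMTS2 were further from it and not called, with -0.83 ± 0.31 (adjusted p = 0.0917) and 0.78 ± 0.29 (adjusted p = 0.0973).

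Genes that work with these enzymes were taken as lists: the TspanC8 tetraspanins that carry ADAM10, the iRhom complex that carries ADAM17, inhibitors, the clearance receptor LRP1, proprotein convertases, and shed and matrix substrates. With the knockdown 14 of 50 rose and 8 fell in untreated cells, and 18 of 57 rose and 15 fell under gemcitabine, in the authors' deposited tables. These are 28.0% up and 16.0% down against 17.5% and 19.3% of all genes untreated, and 31.6% up and 26.3% down against 20.3% and 20.8% under gemcitabine. With gemcitabine in shCTRL cells 10 of 54 rose and 6 fell in the authors' deposited table, or 18.5% and 11.1% against 14.5% and 13.5% of all genes. Of the shed substrates 6 of 24 rose and 6 fell in untreated cells, and 8 of 26 rose and 9 fell under gemcitabine, in the authors' deposited tables, or 25.0% each way and then 30.8% and 34.6%. AREG, an EGF receptor ligand released by ADAM17, fell by 2.42 ± 0.50 (adjusted p = 8.64e-06) with the knockdown in untreated cells and fell by 3.09 ± 0.16 (adjusted p = 3.21e-79) under gemcitabine in the authors' deposited tables. HBEGF, a ligand that ADAM12 and ADAM17 release, fell by 1.43 ± 0.21 (adjusted p = 7.42e-11) in untreated cells and fell by 2.99 ± 0.14 (adjusted p = 3.59e-99) under gemcitabine in the authors' deposited tables, and with gemcitabine in shCTRL cells it rose by 2.58 ± 0.17 (adjusted p = 4.30e-48). The interleukin 6 receptor gene IL6R rose by 2.34 ± 0.23 (adjusted p = 1.04e-21) in untreated cells in the authors' deposited table, as did EGF, by 1.70 ± 0.49 (adjusted p = 0.00247) at a mean of 10.2.

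Among the matrix substrates 4 of 8 rose and 1 fell with the knockdown in untreated cells, and 2 of 11 rose and 3 fell under gemcitabine, in the authors' deposited tables. In untreated cells 17.5% of all genes rose and 19.3% fell. Under gemcitabine the shares of 18.2% and 27.3% for these substrates lie near the 20.3% and 20.8% of all genes. FN1, fibronectin, rose by 2.1 ± 0.19 (adjusted p = 7.95e-27) and 1.78 ± 0.27 (adjusted p = 5.51e-10), and COL1A1, a procollagen that ADAMTS2 trims, fell by 1.51 ± 0.21 (adjusted p = 1.31e-11) untreated and fell by 1.90 ± 0.17 (adjusted p = 2.56e-28) under gemcitabine, in the authors' deposited tables. COL3A1, the procollagen of type III, rose by 0.98 ± 0.30 (adjusted p = 0.00405) with the knockdown in untreated cells in the authors' deposited table. It fell by 2.5 ± 0.19 (adjusted p = 4.42e-36) with the knockdown under gemcitabine and rose with gemcitabine in shCTRL cells by 3.52 ± 0.22 (adjusted p = 2.96e-55), in the authors' deposited tables, which share the treated shCTRL libraries. The difference between the knockdown effects was -3.48 ± 0.36 (adjusted p = 4.00e-19) for COL3A1 and -1.55 ± 0.25 (adjusted p = 1.73e-07) for HBEGF.

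Of further genes on these lists, the TNF receptor gene TNFRSF1A fell by 1.71 ± 0.15 (adjusted p = 2.31e-26) and the chemokine gene CX3CL1 rose by 1.65 ± 0.52 (adjusted p = 0.00682) in treated shE4F1 against untreated shCTRL cells, in the authors' deposited table. In that authors' deposited table FN1 and IL6R rose by 1.69 and 1.65, and COL1A1 fell by 1.78. With gemcitabine in shCTRL cells the cytokine gene TNF rose by 2.22 ± 0.44 (adjusted p = 6.04e-06), CX3CL1 by 1.44 ± 0.44 (adjusted p = 0.00622) and the fibrillin gene FBN2 by 1.41 ± 0.44 (adjusted p = 0.00770) in the authors' deposited table, at means of 6.85 to 13.9. FBN2 has a row only in comparisons that include the treated shCTRL libraries, in which it was higher. Its presence there is thus tied to that level. TNF has no row for the untreated knockdown and no adjusted p in treated shE4F1 against untreated shCTRL cells. In shE4F1 cells, by the difference of 2 tables, HBEGF rose by 1.06 ± 0.30 (adjusted p = 0.0326) with gemcitabine, while THBS1, thrombospondin 1, fell by 1.03 ± 0.21 (adjusted p = 0.000202) and TNFRSF1A fell by 0.78 ± 0.21 (adjusted p = 0.0234). The difference between the knockdown effects was -0.82 ± 0.26 (adjusted p = 0.0360) for IL6R, -0.65 ± 0.19 (adjusted p = 0.0151) for the syndecan gene SDC4 and 0.65 ± 0.18 (adjusted p = 0.0117) for the prion protein gene PRNP.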

How the data were processed

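Messenger RNA of SUM159 cells was sequenced in 12 libraries, made with a stranded kit and read as single-end reads, per the labels. The submitters' processing notes name the build GRCh38.p7, DESeq2 1.14.1 run in R 3.4.0, HTSeq 0.9.0, and TopHat2 2.1.1, Bowtie2 2.2.9, FastQC and bcl2fastq. Which annotation, strand setting and design formula the authors used is not given in the sources used here. Of the authors' 4 deposited DESeq2 tables, per the file headers, were used the mean normalized count (a signal scaled by size factors), the log2 fold change, its SE, the Wald score and the p-value with its adjusted p-value. Low genes have fold changes drawn towards 0 where the authors' DESeq2 moderated them. Implied means of low genes would then be drawn together as well. The 12 columns of a count table match no label and were not used, so depth, values per library and their spread are unknown here.

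Means per group were computed as 2B·f/(1 + f) and 2B/(1 + f), with B the table mean and f the fold change, which assumes that the table mean covers the 3 libraries of each group compared. Exon lengths and positions come from GENCODE release 29 (GRCh38), in which all 35 gene IDs were found, and promoters from RefSeq. The gemcitabine effect in shE4F1 cells and the difference between the knockdown effects were computed from 2 tables each, with summed variances, a two-sided normal test and Benjamini-Hochberg adjustment over all genes, in Python 3.11.15 (scipy 1.17.1, pandas 2.3.3, numpy 2.4.6), checked on simulated data; figures used matplotlib 3.10.9. The simulation drew errors separately for each table, so it leaves out the untreated shCTRL libraries shared in the gemcitabine effect in shE4F1 cells. Of simulated log2 changes of 1, 39.5% were found for the difference between the knockdown effects and 42% for that gemcitabine effect. The tables of gemcitabine in shCTRL cells and of the knockdown under gemcitabine add up to that of both changes within 0.1 (log2) for 93.4% of 20913 genes and 27 of 30 genes described here. Every gene called at an adjusted p under 0.05 in any comparison is named, with ADAM10 and ADAM17 in any case, and of the lists of related genes the 5 called genes with the largest changes in each comparison, or fewer where fewer were called. The genes and lists were chosen with earlier results of these data known. Alternatives were a stricter adjusted p, a minimum mean of 50, no independent filtering, centring on the median gene, a minimum change and the knockdown under gemcitabine taken from the other 2 tables.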

Additional observations from a re-analysis of the deposited data

Results flagged for a closer look

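The knockdown effect differed between gemcitabine and untreated cells for 3 of 31 genes, by the normal test of the difference adjusted over all genes. It was lower under gemcitabine for each, where 2.63% of all 20923 genes were lower and 2.81% higher. These are 3 of the 6 proteoglycan-cleaving genes, of which the other 3 were not called. The difference was -2.69 ± 0.22 (adjusted p = 1.24e-31) for ADAMTS1, with -0.69 under gemcitabine and 1.99 untreated in the authors' deposited tables. It was -1.16 ± 0.33 (adjusted p = 0.0150) for ADAMTS15, with 0.68 under gemcitabine and 1.85 untreated in the authors' deposited tables. For ADAMTS9 it was -0.70 ± 0.20 (adjusted p = 0.0150), with -0.12 and 0.57 in the authors' deposited tables. Single libraries were not compared, since no value per library was used.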

How the results depend on the processing

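No called gene that could be compared changed sign on centring or with the knockdown under gemcitabine taken from the other 2 tables. The remaining alternatives leave the log2 change as it is, so they could not change a sign. At an adjusted p under 0.01 the count of called genes was 8 instead of 14 for the knockdown in untreated cells, 0 instead of 1 for gemcitabine in shE4F1 cells, and 1 instead of 3 for the difference between the knockdown effects. With a change of at least 1 (log2) it was 8 for the knockdown in untreated cells, 11 instead of 20 under gemcitabine, 5 instead of 9 for gemcitabine in shCTRL cells and 0 for gemcitabine in shE4F1 cells. Centring on the median gene, which shifted changes by at most 0.07, left 0 for gemcitabine in shE4F1 cells. By the normal test 1 gene was higher there and 3 were lower at an unadjusted p under 0.05, without a share of all genes to set beside them. Taken from the other 2 tables, whose shared libraries enlarge the SE, the knockdown under gemcitabine gave 9. Of single genes, 15 calls were lost at 0.01, 24 with a change of at least 1, 10 from the other tables, 3 on centring and 1 without independent filtering. A minimum mean of 50 takes genes below it out of the test, so their calls are not kept. The 49 calls that could be compared at that minimum were all kept. Genes with few reads are measured least well: ADAM20 had an SE of 0.51 under gemcitabine in the authors' deposited table. No paired analysis was possible because the count columns match no label and the tables hold no replicate numbers; leaving out each replicate was not run for the same reason.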

Other observations

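ADAMTS6 had the SE that stood out most among these genes: in each of the 4 deposited tables it exceeded that of at least 99.5% of genes of like mean, and the gap when the tables were added up was largest for it, at -0.33 on the log2 scale. The implied level of ADAMTS6 in untreated shCTRL cells ranged 1.43-fold over the 3 tables that hold those libraries, against a median of 1.15-fold over the 30 genes in all of them.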
